A study of Mus musculus with 2 samples.

Results

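The genes described here are 31 transcripts that are established targets of the transcription factor p53. They were chosen as a list of symbols. The rule uses no measured value, but the list was chosen with earlier results of these data known. All 31 were found among the 31053 genes of the gene table. The cells came from the kidney cortex of 12-week-old mice and gave 2 single-cell libraries. One library is from mice with the homing endonuclease I-PpoI expressed only in podocytes, where it cuts chromosomal DNA at its recognition sites, and the other is from wild-type mice. The promoter that drives I-PpoI and the number of mice behind each library are not given in the sources used here. Each group is 1 library, and no value has a replicate check. Intervals below are 95% intervals that cover counting error only, and no difference between the libraries carries a test.

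After filtering, 3949 cells of the I-PpoI library (median 6647 UMIs, unique transcript molecules, per cell) and 3094 cells of the wild-type library (median 3486.5 UMIs) were kept. The median mitochondrial share of UMIs was 3.31% in the I-PpoI cells and 14.3% in the wild-type cells. Cells were grouped without the 31 genes, and groups were named from fixed markers, so every class name below means "like" that cell type. In 10 classes both libraries had at least 20 cells. Some classes were each 1 group of cells that both libraries shared. These were mesangial, mural and renin cells (89 and 75 cells, I-PpoI and wild-type, in this order throughout), fibroblasts (283 and 27), T cells (261 and 60) and B and plasma cells (30 and 30). In the other classes the libraries seldom shared a group. The endothelial class held 401 and 746 cells, but only 2 of its groups, of 54 and 67 cells and of 35 and 29 cells, drew at least 20 cells from each. The macrophage class (1599 and 177 cells), the intercalated class (45 and 44 cells) and the dendritic class (34 and 23 cells) had no such shared group, and the thick ascending limb class (277 and 359 cells) had 1, with 81 and 260 cells. Differences between libraries in these classes therefore cannot be told apart from differences between groups of cells within a class, and values from the shared groups are given beside them. No group of podocytes was found. Cells with UMIs from at least 2 of 6 podocyte markers numbered 161 and 53, most of them in the endothelial and fibroblast classes, so what follows describes the cells around the podocyte and not the cell in which the endonuclease is expressed. A total of 6 barcodes occurred in both libraries, of which 3 were kept in both.

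p53 is a transcription factor that is held at a low level by the ubiquitin ligase Mdm2 and accumulates after DNA double-strand breaks, other DNA damage, hypoxia or ribosomal stress. It binds paired decamers near its target genes, and its targets stop the cell cycle, promote repair, reset metabolism or start mitochondrial apoptosis. Many of these genes also answer to other factors: Btg2 and Gadd45a are stress-induced early genes, Ddit4 is induced by glucocorticoids and hypoxia, and Gdf15 and Sesn2 are induced through ATF4.

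The promoter sequences of 5 members show matches to motifs of p53 and of another factor. Each runs over the 250 bases before a RefSeq transcript start on GRCm38.p6, 5′ to 3′ on the strand of the gene. Capitals mark the p53 decamer in Mdm2, Ccng1 and Bax, and the cyclic AMP response element TGACGTCA in Btg2 and Plk2. They were chosen after the values were seen, as 3 members counted as higher in few classes and 2 counted as higher in several. The division is not general: Gadd45a also has the decamer and was higher in 3 classes. Epha2 has TGACGTCA and was higher in 1 of 4 classes. Ddit4 and Gdf15, higher in 7 of 7 and 4 of 4 classes, have neither motif in the windows searched.
Mdm2, chr10:117710759-117711008, minus strand: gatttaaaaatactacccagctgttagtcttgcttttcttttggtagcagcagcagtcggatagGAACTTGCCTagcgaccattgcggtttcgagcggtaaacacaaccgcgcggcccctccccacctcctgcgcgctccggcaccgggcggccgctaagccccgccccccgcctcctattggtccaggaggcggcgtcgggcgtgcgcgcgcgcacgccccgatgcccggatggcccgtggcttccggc
Ccng1, chr11:40755287-40755536, minus strand: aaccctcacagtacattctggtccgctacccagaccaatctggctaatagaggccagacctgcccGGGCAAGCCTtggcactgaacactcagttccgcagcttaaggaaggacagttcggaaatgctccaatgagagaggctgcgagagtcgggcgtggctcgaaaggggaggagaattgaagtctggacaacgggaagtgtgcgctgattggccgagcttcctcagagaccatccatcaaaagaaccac
Bax, chr7:45466899-45467148, minus strand: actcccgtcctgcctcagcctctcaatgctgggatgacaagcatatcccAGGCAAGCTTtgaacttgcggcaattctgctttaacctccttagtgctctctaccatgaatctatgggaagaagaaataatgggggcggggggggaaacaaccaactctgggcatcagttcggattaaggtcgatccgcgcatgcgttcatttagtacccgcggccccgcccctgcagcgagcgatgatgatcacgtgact
Btg2, chr1:134079156-134079405, minus strand: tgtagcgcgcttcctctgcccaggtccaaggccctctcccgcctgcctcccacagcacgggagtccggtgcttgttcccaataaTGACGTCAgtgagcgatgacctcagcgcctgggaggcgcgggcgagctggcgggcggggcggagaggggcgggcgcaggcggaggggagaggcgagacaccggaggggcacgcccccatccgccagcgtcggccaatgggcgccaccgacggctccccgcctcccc
Plk2, chr13:110394794-110395043, plus strand: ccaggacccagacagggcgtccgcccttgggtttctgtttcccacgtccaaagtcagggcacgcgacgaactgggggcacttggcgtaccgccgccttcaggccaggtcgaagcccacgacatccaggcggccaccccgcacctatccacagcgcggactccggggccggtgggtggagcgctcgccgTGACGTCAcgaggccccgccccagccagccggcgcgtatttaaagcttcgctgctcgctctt
Both strands were searched, and no marked motif overlaps a match of another motif searched. The promoter table held 23 of the 31 members with 33 starts. The p53 decamer was found before 9 of those 33 starts, in Mdm2, Ccng1, Gadd45a, Bax, Aen, Ei24, Polk, Sesn1 and Rps27l, which is 27.3% of the members' starts against 7.12% of all 32817 promoters searched. TGACGTCA was found before 3 starts, in Btg2, Plk2 and Epha2 (9.09% against 1.55% of all), and the AP-1 motif TGANTCA before 1, in Fas (3.03% against 6.75%). The CArG box of serum response factor was found in none of the members' windows and in 1.47% of all. These are matches of letters in a short window, and many functional p53 elements lie in first introns that were not searched.

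**Figure D1:**
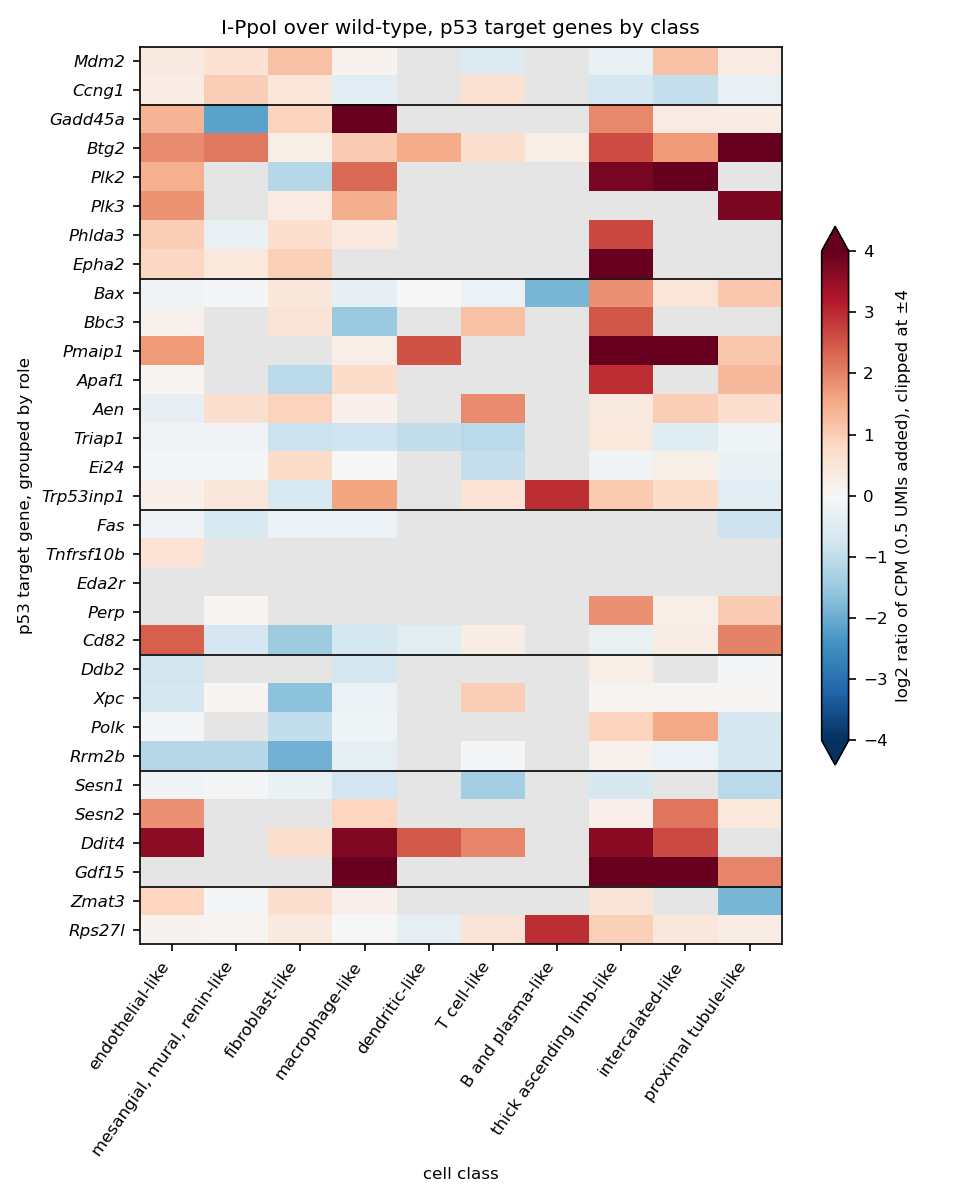
Ratio of the I-PpoI to the wild-type level (CPM) for the 31 p53 target genes, as rows ordered by role, in 10 cell classes, as columns. Colour gives log2 of the ratio with 0.5 UMIs added, limited to values between -4 and 4, and grey marks fewer than 20 UMIs over both libraries. Red runs along the rows of Btg2, Ddit4 and Gdf15, while the rows of Mdm2, Ccng1, Bax, Ei24 and Fas are pale in most classes.

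Outside the proximal tubule the members were uneven. Ddit4 and Gdf15 were higher in the I-PpoI library in each of the 7 and 3 classes in which they were measured, and Btg2 in 6 of 9. Mdm2, Ccng1 and Bax, which are common readouts of p53, were higher in 2, 1 and 1. Levels are CPM, a gene's UMIs scaled to the total UMIs of its class and library, and a gene was counted as higher or lower where its ratio between libraries was at least 2 or at most 0.5 with at least 20 UMIs over both. Over the 9 classes outside the proximal tubule, 171 pairs of a member and a class had enough UMIs. Of these, 54 (31.6%) were higher and 11 (6.43%) lower in the I-PpoI library. Of all 65917 pairs of a gene and a class, 14.2% were higher and 8.68% lower. For 12 of the 65 counted pairs of members the interval of the ratio included 1. The excess was not spread evenly over the roles, and 1 gene can hold several pairs. Stress and metabolism genes were higher in 13 of 20 pairs and genes of arrest and growth control in 17 of 32. Apoptosis genes were higher in 15 of 53, death receptors and membrane proteins in 2 of 16, DNA repair genes in 2 of 22 with 4 lower, and the feedback pair Mdm2 and Ccng1 in 3 of 14.

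By class, the thick ascending limb had the most members higher, 13 of 27 with none lower, but 30.3% of all its genes were higher and 6.96% lower. The intercalated class followed with 9 of 20 higher and none lower, where 22.6% of all genes were higher and 3.89% lower. Endothelial cells had 8 of 28 members higher and 1 lower against 5.71% and 6.56% of all genes. Macrophages had 8 of 27 higher and 1 lower against 9.93% and 8.27%. In both of these classes, as in the others compared, the members' share of higher genes was above that of all genes. That compares counts alone, and some counted ratios had intervals that included 1. Fibroblasts had 5 of 24 higher and 4 lower against 10.7% and 15.4%, on only 27 wild-type cells. The intervals of those 5 higher members, Mdm2, Bbc3, Aen, Ddit4 and Zmat3, all included 1. Mesangial, mural and renin cells had 2 of 19 in each direction against 6.52% higher and 5.43% lower, which is close to the background share in both directions. T cells had 4 of 15 higher and 2 lower against 13.1% and 5.83%, and dendritic cells 3 of 7 higher and none lower against 10.2% and 7.61%. Of the 4 higher in T cells, Bbc3, Aen and Xpc had intervals that included 1. B and plasma cells had 2 of 4 higher and 1 lower against 9.75% and 49.4%, and their libraries differ in kind: the plasma cell gene Jchain was at 45125 CPM in the I-PpoI and 0 in the wild-type cells, and the B cell gene Ms4a1 at 114 and 964 CPM. The proximal tubule class, with only 40 I-PpoI cells against 1344, had 5 of 24 higher and 1 lower against 8.51% and 7.98%.

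The median log2 ratio of the members, less that of all genes of the class, was 0.53 in T cells, 0.41 in the thick ascending limb, 0.30 in endothelial cells, 0.19 in macrophages and -0.02 in mesangial, mural and renin cells. It was 0.55 in fibroblasts, 0.22 in the intercalated class, 0.19 in the proximal tubule and -0.03 in dendritic cells, and 2.61 in B and plasma cells, where it rests on 4 members. The median over all genes was itself 0.52 in the thick ascending limb, 0.39 in the intercalated class, 0.12 in the proximal tubule, -0.19 in fibroblasts and -1.01 in B and plasma cells, and between -0.05 and 0.01 in the other classes. Centred on that median, the thick ascending limb had 12 members higher and 2 lower, the intercalated class 7 and 1, fibroblasts 8 and 3, the proximal tubule 4 and 2, T cells 4 and 1, dendritic cells 3 and 1, and B and plasma cells 3 and 0, with endothelial cells at 9 and 1 and macrophages at 8 and 1. Leaving out mitochondrial UMIs gave 12 and 2 in the thick ascending limb and 7 and 1 in the intercalated class. The shares of all genes were not computed after centring or without mitochondrial UMIs. These counts of members therefore have no background share beside them.

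The feedback genes come first because p53 induces them in most cell types. Mdm2 encodes the ligase that marks p53 for degradation, and Ccng1 encodes cyclin G1, which recruits a phosphatase to Mdm2. Mdm2 in endothelial cells was 43.5 CPM in the I-PpoI and 33.9 CPM in the wild-type library, a ratio of 1.28 (0.970 to 1.70). Its ratio was 1.12 (0.725 to 1.83) in macrophages and 0.816 (0.605 to 1.11) in the thick ascending limb, where the counts were 106 and 80 UMIs. In these 3 classes the interval included 1 and ended below a ratio of 2. In mesangial, mural and renin cells Mdm2 was 48.6 and 32.1 CPM, a ratio of 1.51 (0.773 to 3.08). T cells had 33.8 and 46.2 CPM (0.732, 0.339 to 1.75), and the proximal tubule 31.1 and 26.4 CPM (1.18, 0.469 to 2.46). Mdm2 was counted as higher in the intercalated class alone with an interval above 1, at 49.1 and 20.9 CPM, a ratio of 2.35 (1.20 to 5.01). That ratio was 1.93 when each cell was named by its own highest marker score or when mitochondrial UMIs were left out, and 1.79 when centred on the class median. Fibroblasts had a ratio of 2.80 (0.760 to 23.4) on 129 and 2 UMIs.

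Ccng1 had another pattern than Mdm2. In the intercalated class it was 64.5 CPM in the I-PpoI and 126 CPM in the wild-type library (ratio 0.513, 0.358 to 0.736), and in the thick ascending limb 43.6 and 69.5 CPM (0.627, 0.504 to 0.780). Endothelial cells had 21.1 and 17.1 CPM (1.23, 0.823 to 1.85), macrophages 22.8 and 30.5 CPM (0.749, 0.498 to 1.17). In mesangial, mural and renin cells it was 52.4 and 25.7 CPM (2.04, 1.00 to 4.40) on 28 and 12 UMIs. Ccng1 thus had intervals below 1 in the intercalated class and the thick ascending limb, with ratios above the rule for lower in both. These ratios were 0.423 and 0.481 without mitochondrial UMIs and 0.392 and 0.436 when centred, which the rule counts as lower. Ccng1 was counted as higher in 1 class, where 4 alternative settings brought the ratio to between 1.44 and 1.95. The proximal tubule (0.785, 0.416 to 1.35), T cells (1.70, 0.602 to 6.64) and fibroblasts (1.64, 0.546 to 8.05) had intervals that included 1.

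**Figure D2:**
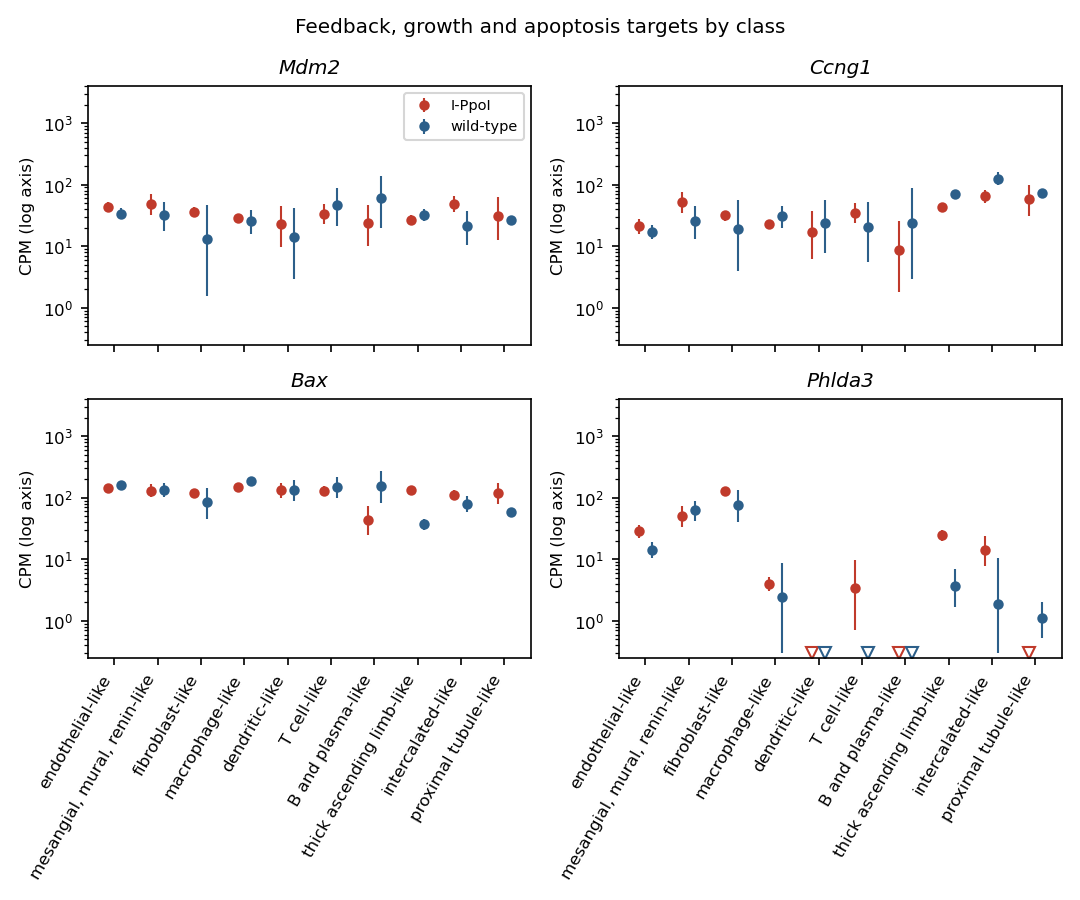
Levels of Mdm2, Ccng1, Bax and Phlda3 (CPM, log axis) in each cell class of the I-PpoI and wild-type libraries. Points are summed UMIs of 1 library, bars are exact 95% Poisson intervals for counting error, and open triangles mark 0 UMIs. The bars of the libraries overlap for Mdm2 in endothelial cells, at 43.5 and 33.9 CPM, and lie apart for Bax and Phlda3 in the thick ascending limb, at 134 and 37.2 CPM and at 24.4 and 3.68 CPM.

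Among the genes of arrest and growth control, Btg2 was higher in the most classes. It encodes an antiproliferative protein that stimulates the deadenylation of mRNA. It was higher in the I-PpoI library in 7 of 10 classes and lower in none. Endothelial cells had 637 and 171 CPM, a ratio of 3.72 (3.37 to 4.12). Mesangial, mural and renin cells had 881 and 201 CPM (4.38, 3.50 to 5.52), and the intercalated class 1269 and 392 CPM (3.24, 2.79 to 3.77). The intervals of the libraries did not overlap in these 3 classes. In the thick ascending limb the levels were 576 and 95.2 CPM (6.05, 5.28 to 6.95), with ratios from 2.05 to 13.5 over the alternatives that moved it. Macrophages had 983 and 486 CPM (2.02, 1.83 to 2.24), and dendritic cells 1130 and 400 CPM (2.83, 2.23 to 3.62). The macrophage ratio lies at the edge of the rule: it was 1.97 without mitochondrial UMIs and 1.71 with every cell thinned to 1000 UMIs, and the dendritic ratio was 1.42 after thinning. T cells (1.58, 1.27 to 1.99) had a smaller ratio, and fibroblasts (1.20, 0.836 to 1.77) and B and plasma cells (1.22, 0.787 to 1.95) had intervals that included 1. In the proximal tubule Btg2 was 35.5 and 1.32 CPM on 8 and 12 UMIs.

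Plk2 and Plk3 encode polo-like kinases of the stress response. Plk2 was above all an endothelial gene, at 365 CPM in the I-PpoI and 138 CPM in the wild-type endothelial cells (ratio 2.65, 2.36 to 2.99). No other class exceeded 36.8 CPM in the I-PpoI or 38.6 CPM in the wild-type library. Plk2 was also higher in macrophages, at 32.6 and 6.10 CPM (5.33, 2.27 to 16.5), and in the thick ascending limb, at 36.8 and 2.45 CPM (15, 6.73 to 41.5). The thick ascending limb ratio was 8.62 at clustering resolution 0.5. In the intercalated class Plk2 had 20 UMIs against 0, at least 3.59-fold higher when the wild-type count is set to the floor of 3 UMIs. Plk3 was 14.8 and 4.12 CPM in endothelial cells (3.59, 1.85 to 7.39) and 38.4 and 13.4 CPM in macrophages (2.86, 1.59 to 5.77). Both kinases were thus higher in endothelial cells and macrophages with intervals above 1. Plk2 went the other way in fibroblasts, at 18.7 and 38.6 CPM, with an interval that included 1 (0.485, 0.212 to 1.37). Plk3 in the proximal tubule was 39.9 and 3.08 CPM on 9 and 28 UMIs.

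Gadd45a encodes a PCNA-binding protein of growth arrest and repair, and it differed in direction between classes. It was 86.7 and 33.6 CPM in endothelial cells (2.58, 2.03 to 3.29) and 129 and 33.9 CPM in the thick ascending limb (3.80, 3.01 to 4.85). Macrophages had 142 UMIs in the I-PpoI and 0 in the wild-type library, at least 2.65-fold higher against the floor of 3 UMIs. In mesangial, mural and renin cells it was lower, at 7.48 and 36.4 CPM (0.206, 0.0503 to 0.630), on 4 and 17 UMIs. Some of these calls rest on how cells were grouped: with shared groups alone the endothelial ratio was 1.41, and with cells named by the highest marker score the mesangial ratio was 0.633 and the macrophage ratio 1.63. Its highest level in both libraries was in the intercalated class, at 495 and 390 CPM (1.27, 1.07 to 1.50).

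Phlda3, a competitor of Akt for membrane lipids, and Epha2, an ephrin receptor, were both higher in the thick ascending limb. Phlda3 was 24.4 and 3.68 CPM there (6.64, 3.36 to 15), and Epha2 16.4 and 0.818 CPM (20.0, 5.33 to 169). With other filters and groupings these ratios ranged from 2.11 to 52.5 for Phlda3 and from 3.12 to 35.0 for Epha2. In endothelial cells Phlda3 was 28.3 and 14.3 CPM (1.98, 1.34 to 2.96) and Epha2 50.7 and 28.5 CPM (1.78, 1.34 to 2.36). Both endothelial intervals lay above 1, with ratios just under the rule. Phlda3 was highest in fibroblasts in both libraries, at 128 and 77.2 CPM (1.65, 0.938 to 3.23), and was not higher in mesangial, mural and renin cells (0.814, 0.464 to 1.42). Macrophages had few Phlda3 UMIs, 58 and 2, with a ratio of 1.63 (0.430 to 13.7).

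Of the 8 apoptosis genes, 5 were higher in the thick ascending limb. Bax encodes the effector that permeabilises the mitochondrial outer membrane. In the thick ascending limb it was 134 and 37.2 CPM (3.59, 2.87 to 4.53), and no other class outside the proximal tubule had Bax counted as higher. In endothelial cells Bax was 145 and 161 CPM (0.898, 0.781 to 1.03), in macrophages 149 and 186 CPM (0.800, 0.679 to 0.950), and in mesangial, mural and renin cells 131 and 135 CPM (0.971, 0.681 to 1.39). These 3 intervals include no ratio above 1.39. Dendritic cells (0.996, 0.611 to 1.65), T cells (0.864, 0.570 to 1.35), the intercalated class (1.41, 0.979 to 2.06) and fibroblasts (1.42, 0.822 to 2.69) had intervals that included 1. B and plasma cells had 44.0 and 157 CPM (0.281, 0.125 to 0.641), on 15 and 13 UMIs in populations of different makeup. That ratio was 0.564 when centred on the class median, which the rule does not count as lower. Proximal tubule cells had 120 and 58.2 CPM (2.06, 1.34 to 3.03), a ratio that 6 alternative settings brought to between 1.72 and 1.93.

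The BH3-only genes Bbc3, which encodes PUMA, and Pmaip1, which encodes NOXA, feed into Bax. Pmaip1 was higher in 4 of 6 classes: 43.6 and 0.409 CPM in the thick ascending limb (173 and 1 UMIs, ratio 107, 18.9 to 4235), 56 against 0 UMIs in the intercalated class (at least 10.0-fold higher against the floor of 3 UMIs), 291 and 47.6 CPM in dendritic cells (6.11, 3.19 to 13.1), and 7.61 and 2.22 CPM in endothelial cells (3.43, 1.37 to 9.71). In macrophages it was 63.8 and 52.5 CPM (1.21, 0.895 to 1.69). The thick ascending limb ratio of Pmaip1 rests on 1 wild-type UMI and was between 8.21 and 45.7 under 6 alternative settings. Bbc3 had no such breadth: it was 16.9 and 2.86 CPM in the thick ascending limb (5.90, 2.71 to 15.2), 17.3 and 15.5 CPM in endothelial cells (1.12, 0.718 to 1.72), and lower in macrophages, at 11.2 and 30.5 CPM (0.365, 0.239 to 0.581). The macrophage ratio was 0.708 after thinning. The pair thus went together in the thick ascending limb and had ratios on different sides of 1 in macrophages. In T cells and fibroblasts Bbc3 was counted as higher on 2 and 1 wild-type UMIs, with intervals that included 1.

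Apaf1, the scaffold of the apoptosome, was 7.81 and 0.818 CPM in the thick ascending limb on 31 and 2 UMIs (9.55, 2.43 to 82.4), a ratio of 1.39 with a mitochondrial limit of 25%. It was 25.8 and 24.7 CPM in endothelial cells (1.04, 0.733 to 1.48). Trp53inp1, a cofactor of p53 and of autophagy, was 12.6 and 3.66 CPM in macrophages (3.44, 1.16 to 16.8), a ratio of 1.34 after thinning, and 29.7 and 14.3 CPM in the thick ascending limb (2.08, 1.41 to 3.12). The latter ratio was 1.15 at the 25% limit, 1.34 at clustering resolution 0.5, 1.59 without mitochondrial UMIs and 1.44 when centred, and 3.54 at resolution 2. Among B and plasma cells Trp53inp1 was 510 and 60.2 CPM (8.47, 3.56 to 26.4) on 174 and 5 UMIs. The remaining apoptosis genes differed less. Ei24, a membrane protein of the endoplasmic reticulum, was counted in neither direction in any of 8 classes, with ratios from 0.549 to 1.86. Triap1, an inhibitor of apoptosis, was counted as lower in T cells alone, with an interval that included 1 (0.494, 0.204 to 1.31), and lay below 1 in macrophages (0.583, 0.454 to 0.760). Aen, an exonuclease, was counted as higher in the intercalated class, fibroblasts and T cells, each with an interval that included 1.

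Among death receptors and membrane proteins only Perp and Cd82 were counted in either direction. Perp, a desmosomal protein, was higher in the thick ascending limb, at 56.7 and 15.9 CPM (3.56, 2.52 to 5.13), and not in its other 3 classes. Its ratio was 2.04 without doublet removal. Fas was an endothelial gene, at 135 CPM in the I-PpoI and 150 CPM in the wild-type endothelial cells (0.902, 0.780 to 1.04), and was counted in neither direction in any of 5 classes. The TRAIL receptor gene Tnfrsf10b reached 20 UMIs in endothelial cells alone, at 14.4 and 9.83 CPM (1.46, 0.872 to 2.46). Eda2r, a receptor of ectodysplasin A2, had 42 and 9 UMIs over all kept cells and was measured in no class. The tetraspanin gene Cd82 went in opposite directions: 15.6 and 2.85 CPM in endothelial cells (5.48, 2.60 to 12.9) and 27.4 and 70.8 CPM in fibroblasts (0.387, 0.207 to 0.801). In macrophages Cd82 was 23.0 and 36.6 CPM (0.628, 0.431 to 0.945).

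Outside the proximal tubule the DNA repair genes were higher in 2 of 22 pairs and lower in 4. These are 9.09% and 18.2%, against 14.2% and 8.68% of all pairs. The lower pairs were Rrm2b in 3 classes and Xpc in fibroblasts, where 15.4% of all genes were lower. Rrm2b encodes the p53-inducible subunit of ribonucleotide reductase, and it was lower in 3 of 8 classes and higher in none. It was 38.5 and 85.0 CPM in endothelial cells (0.453, 0.353 to 0.576), 29.9 and 66.3 CPM in mesangial, mural and renin cells (0.451, 0.230 to 0.850), and 14.3 and 51.5 CPM in fibroblasts (0.277, 0.130 to 0.676). All 3 intervals lay below 1, and the endothelial ratio was 0.600 after thinning. The nucleotide excision repair genes Xpc and Ddb2 were not counted as higher outside T cells: Xpc was 40.2 and 64.7 CPM in endothelial cells (0.621, 0.481 to 0.796) and 21.5 and 64.4 CPM in fibroblasts (0.335, 0.172 to 0.725), and Ddb2 was counted in neither direction in any of 4 classes. Xpc in T cells had a ratio of 2.42 on 22 and 2 UMIs, with an interval from 0.594 to 21.2. The translesion polymerase gene Polk was 34.8 and 11.4 CPM in the intercalated class (3.05, 1.27 to 8.88) and 34.2 and 35.8 CPM in endothelial cells (0.956, 0.709 to 1.28).

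**Figure D3:**
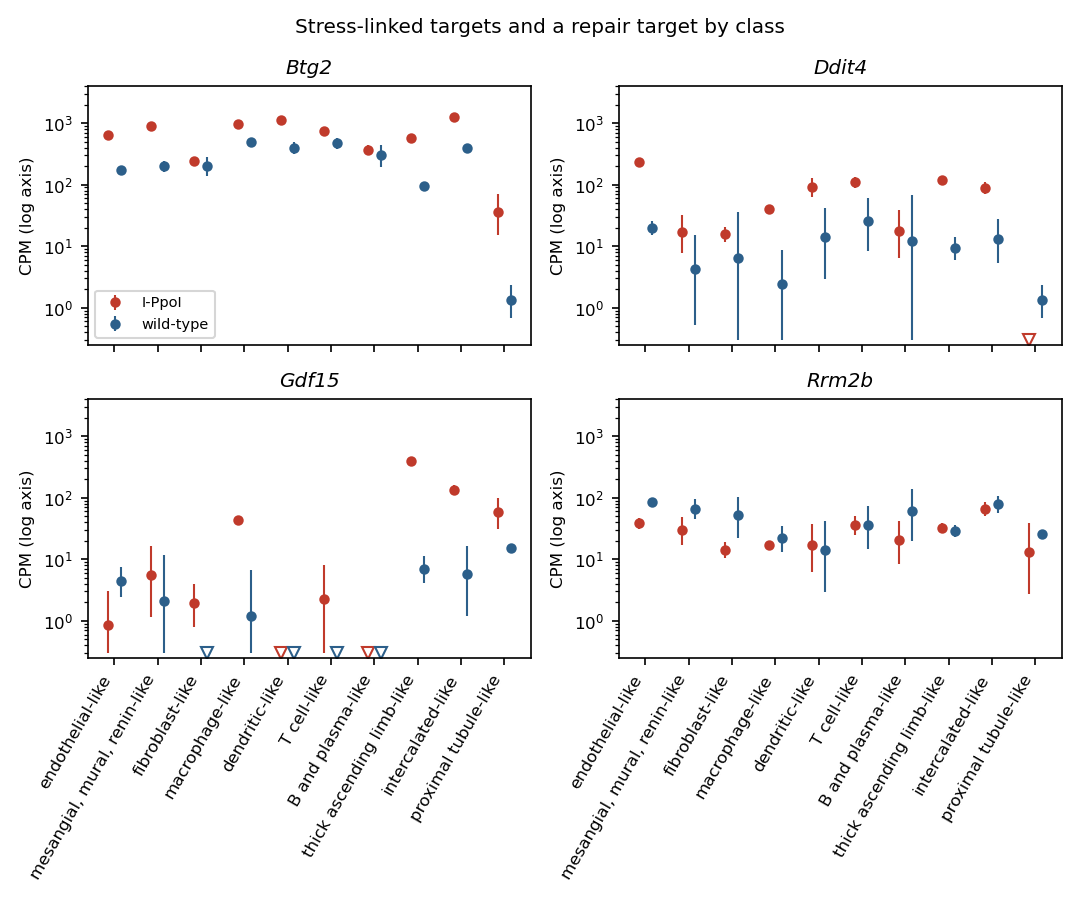
Levels of Btg2, Ddit4, Gdf15 and Rrm2b (CPM, log axis) in each cell class of the I-PpoI and wild-type libraries, drawn with summed UMIs of 1 library as points, exact 95% Poisson intervals as bars and open triangles for 0 UMIs. Ddit4 sits higher in the I-PpoI library in every compared class with 20 UMIs (ratios 2.43 to 16.3), and Rrm2b sits lower in endothelial cells at 38.5 against 85.0 CPM.

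Stress and metabolism genes were higher in a larger share of pairs than any other role, but all those pairs were of Ddit4, Gdf15 and Sesn2. Sesn1 was higher in 0 of 7 classes and lower in 1. Ddit4 encodes REDD1, an inhibitor of mTOR complex 1, and was higher in all 7 classes in which it had 20 UMIs. Endothelial cells had 235 and 19.7 CPM (12.0, 9.18 to 15.8), the thick ascending limb 118 and 9.40 CPM (12.6, 8.27 to 20.0), and the intercalated class 89.1 and 13.3 CPM (6.69, 3.11 to 17.1). Among immune cells the ratio was 16.3 (4.49 to 135) in macrophages on 582 and 2 UMIs, 6.33 (1.98 to 32.3) in dendritic cells and 4.26 (1.76 to 13.4) in T cells. Fibroblasts had a ratio of 2.43 on 56 and 1 UMIs with an interval that included 1. The endothelial ratio was 4.54 with shared groups alone and 26.4 after thinning, the macrophage ratio 4.97 after thinning, and the thick ascending limb ratio 5.13 with a mitochondrial limit of 25%.

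Gdf15, a secreted cytokine of the TGF-beta family, was higher in all 4 classes in which it was measured. Its level was 394 and 6.95 CPM in the thick ascending limb (56.8, 35.3 to 97.7), 134 and 5.71 CPM in the intercalated class (23.5, 7.86 to 115), and 43.0 and 1.22 CPM in macrophages (35.2, 6.29 to 1392, on 628 and 1 UMIs). The tubule classes had the higher levels, and the thick ascending limb ratio ranged from 17.6 to 177 over the alternatives that moved it. The macrophage ratio was at least 2.20 after thinning, against the floor of 3 UMIs, so its size was poorly fixed. In macrophages the 5 injured tubule markers summed to 241 and 36.6 CPM, with 1 and 4 of them at 0, and the 12 proximal tubule markers to 282 and 371 CPM, with 2 and 3 at 0. Among single tubule transcripts there, Spp1, which macrophages also express, was at 980 and 37.8 CPM, Lcn2 at 8.35 and 0, Havcr1 at 0.342 and 0, and Umod at 3.15 and 7.32. Their part in the Gdf15 level was not tested. Sesn2, a leucine-sensing sestrin, was 7.19 and 1.90 CPM in endothelial cells (3.78, 1.42 to 11.7) and 20.5 and 3.81 CPM in the intercalated class (5.38, 1.31 to 47.5), with 17 and 6 and 20 and 2 UMIs. Sesn1, its paralogue, went the other way: it was 25.9 and 66.7 CPM in T cells (0.389, 0.189 to 0.835) and 35.1 and 58.6 CPM in macrophages (0.599, 0.445 to 0.823). In endothelial cells Sesn1 was 38.5 and 41.5 CPM (0.926, 0.701 to 1.22).

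Outside the proximal tubule the RNA and ribosome genes were higher in 2 of 14 pairs and lower in none. That share of 14.3% higher was close to the 14.2% of all pairs. For 5 of the 14 pairs the interval of the ratio lay above 1. Rps27l, a ribosomal protein paralogue that binds Mdm2, was measured in all 10 classes, with ratios from 0.779 to 1.92 in 9 of them. In endothelial cells it was 320 and 288 CPM (1.11, 1.01 to 1.23) and in macrophages 368 and 371 CPM (0.991, 0.883 to 1.12). B and plasma cells were the exception, at 416 and 48.2 CPM (8.64, 3.30 to 32.1). Zmat3, an RNA-binding zinc finger protein, was 16.9 and 9.20 CPM in endothelial cells (1.84, 1.11 to 3.08) and was counted as higher in fibroblasts alone, on 54 and 1 UMIs.

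Groups that drew at least 20 cells from each library compare cells that were clustered together. The dendritic, macrophage and intercalated classes had none. The mesangial, mural and renin, fibroblast, T cell and B and plasma classes were each 1 such group, so their values are those given above. In the shared endothelial group of 54 and 67 cells, 4 of 19 measured members were higher and 1 lower, against 4.66% and 7.31% of all genes. Btg2 was 998 and 273 CPM (3.66, 3.05 to 4.41), Ddit4 201 and 42.8 CPM (4.69, 2.99 to 7.65) and Plk2 224 and 44.6 CPM (5.02, 3.24 to 8.07). Rrm2b was lower, at 38.3 and 96.3 CPM (0.397, 0.225 to 0.675). Those 4 had the same direction as in the whole endothelial class, while Bax had a ratio of 0.711 and Gadd45a of 1.40. In the shared thick ascending limb group of 81 and 260 cells, 3 of 10 members were higher and none lower, against 8.79% and 11.4% of all genes: Btg2 (3.98, 1.96 to 8.31), Gadd45a (2.85, 1.59 to 5.10) and Gdf15 (71.1, 11.6 to 2921, on 25 and 1 UMIs). Bax there had a ratio of 1.18 (0.553 to 2.38), so its 3.59-fold ratio in the whole class came with the unshared groups. In the second shared endothelial group no member reached 20 UMIs. The shared proximal tubule group, of 21 and 500 cells, had 4 of 11 members higher and none lower, against 12.4% and 4.11% of all genes. These were Triap1, Xpc, Perp and Rrm2b, each on 1 or 2 I-PpoI UMIs with an interval that included 1, and none was counted as higher in the whole proximal tubule class. The largest I-PpoI group of the thick ascending limb, 195 cells led by Lcn2 and Clu, had no wild-type counterpart. The summed level of injured tubule markers was 6124 CPM in the I-PpoI and 10.2 CPM in the wild-type class, and that of thick ascending limb markers 5302 and 28899 CPM. The intercalated class had 1542 and 13.3 CPM of injured tubule markers. In endothelial cells the 11 macrophage markers summed to 102 and 7.93 CPM, with 0 and 5 of them at 0, and the 12 proximal tubule markers to 11.8 and 163 CPM, with 6 and 0 at 0. In T cells the macrophage markers summed to 129 and 5.13 CPM, with 3 and 10 at 0, and the proximal tubule markers to 7.89 and 221 CPM, with 8 and 4 at 0. The 7 erythroid markers summed to 59.8 and 29001 CPM in T cells, with 2 and 0 at 0, and the 8 NK cell markers to 741 and 2285 CPM, with 1 and 0 at 0. The mitochondrial share of UMIs in the thick ascending limb was 9.34% and 30.4%. The part of these differences in the ratios of the members was not tested.

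Other genes of the p53 pathway, from lists that hold none of the 31 members, place these values. Cdkn1a, which encodes the cyclin-dependent kinase inhibitor p21, was higher in 7 of 9 classes, including endothelial cells at 264 and 127 CPM (2.07, 1.83 to 2.36), macrophages at 231 and 57.4 CPM (4.02, 3.02 to 5.48) and mesangial, mural and renin cells at 322 and 62.1 CPM (5.18, 3.48 to 7.97). The ratio was 11.2 (7.78 to 16.6) in the thick ascending limb and 36.9 (12.5 to 181) in the intercalated class, and 1.33 (0.722 to 2.58) in dendritic cells. Cdkn1a was thus higher with Btg2 in endothelial cells and macrophages, where Mdm2 and Bax were not counted as higher. Over the 9 classes outside the proximal tubule, the list of other p53 targets was higher in 23 of 76 pairs and lower in 6, a share of 30.3% close to the 31.6% of the members. The list of p53 and its regulators was higher in 9 of 116 pairs and lower in 7, or 7.76% and 6.03%. Trp53 itself, the gene of p53, was 70.6 and 57.4 CPM in endothelial cells (1.23, 0.991 to 1.53), lower in macrophages at 37.5 and 76.9 CPM (0.487, 0.375 to 0.643), and higher in the thick ascending limb at 48.1 and 8.58 CPM (5.60, 3.56 to 9.26).

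Lists of transcripts that other stimuli induce also held many genes counted as higher. Immediate early genes, which cells induce soon after dissociation, growth factors or stress, listed with a few heat shock genes, were higher in 94 of 148 pairs (63.5%) and lower in 9. Fos was 1038 and 42.8 CPM in endothelial cells (24.3, 20.4 to 29.1) and 1946 and 446 CPM in macrophages (4.37, 3.94 to 4.86), and Atf3 was 184 and 11.7 CPM in endothelial cells (15.7, 11.2 to 22.6). Glucocorticoid-induced genes were higher in 23 of 36 pairs (63.9%), and Fkbp5, a classical one, was 175 and 23.1 CPM in endothelial cells (7.54, 5.87 to 9.81) and 143 and 15.9 CPM in macrophages (9.02, 5.26 to 17.0). ATF4 targets were higher in 14 of 47 pairs (29.8%) and hypoxia genes in 12 of 37 (32.4%). In fibroblasts, where Btg2 differed little, 4 of 18 immediate early genes were higher and 2 lower, with Fos at 369 and 335 CPM (1.10, 0.837 to 1.49). T cells differed from this: Btg2 was not counted as higher there either, though its interval lay above 1. The median log2 ratio of the immediate early list in T cells was 1.10 to 1.155 under 2 alternative settings. The immediate early and glucocorticoid lists had a larger share of higher pairs than the p53 targets. In endothelial cells 17 of 18 immediate early genes were higher. All these lists were chosen with earlier results of these data known, so their shares may reflect that choice. The part of these programmes in the levels of Btg2, Plk2, Gadd45a and Ddit4 was not tested.

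**Figure D4:**
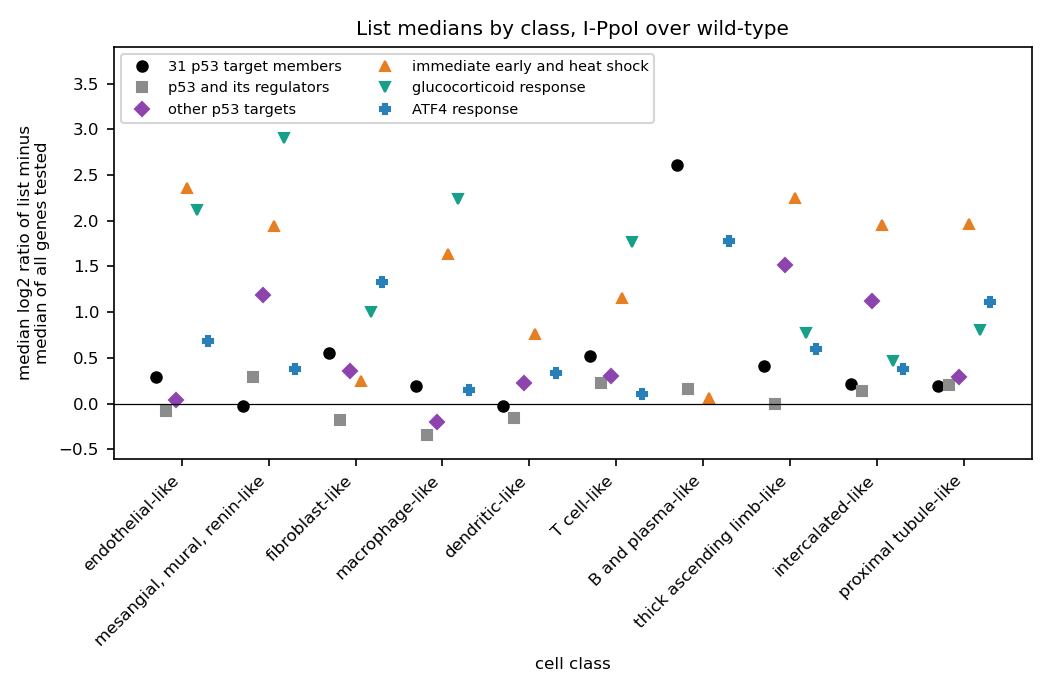
Median log2 ratio (I-PpoI over wild-type) of each gene list less the median of all genes, by cell class, for lists with at least 3 measured genes. Each point is 1 list in 1 class. Immediate early genes lie above the p53 members in endothelial cells, the thick ascending limb and macrophages, while the list of p53 and its regulators lies near 0 in endothelial cells.

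The members also differed in where they were highest. Plk2, Epha2 and Fas were highest in endothelial cells in both libraries, Gadd45a and Ccng1 in the intercalated class, Phlda3 in fibroblasts, and Aen and Zmat3 in mesangial, mural and renin cells. The intervals of the highest and the next class lay apart in both libraries for Plk2, Fas and Gadd45a. They overlapped in both for Epha2, Aen and Zmat3, for Ccng1 in the I-PpoI library and for Phlda3 in the wild-type library. Among the I-PpoI cells 6 members were highest in neutrophils, which had too few wild-type cells (177 and 12) to be compared: Mdm2, Btg2, Plk3, Bax, Apaf1 and Sesn2. Only for Mdm2, Btg2 and Plk3 did the interval lie apart from that of the next class. Mdm2 in those neutrophils was 150 CPM on 65 UMIs, with the next class, intercalated, at 49.1 CPM. Btg2 in neutrophils was 2208 CPM in the I-PpoI and 2238 CPM in the wild-type library, the latter on 83 UMIs. That wild-type level comes from 12 cells, fewer than the 20 required for ordering classes. Among wild-type classes with at least 20 cells Btg2 was highest in macrophages, at 486 CPM.

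A group of 248 and 41 cells led by Aqp1 and Cryab ran against the pattern elsewhere. It held 8 of 12 proximal tubule markers but was left unnamed, since its cells were shallow and none of those markers was among its leading genes. Its leading genes included Spp1, Fgg and C3, which also led the injured tubule class. Of 19 members measured there, 1 was higher (Sesn2, on 31 and 1 UMIs) and 10 lower in the I-PpoI cells, against 12.5% and 37.6% of all genes. Btg2 was 35.2 and 1277 CPM (0.0276, 0.0186 to 0.0396), Gdf15 68.2 and 476 CPM (0.143, 0.106 to 0.191), and Cd82 15.9 and 197 CPM (0.0809, 0.0426 to 0.142). All 3 intervals lay below 1. Whether both libraries gave the same kind of cell to this group was not tested.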

How the data were processed

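The authors' deposited matrices hold raw counts of UMIs per gene and barcode (10x 3′ kit v3.1, mm10, Cell Ranger 3.1 per the labels' protocols, 6.0.2 per the file headers). Barcodes with at least 200 genes and at most 50% mitochondrial UMIs were kept (4091 of 5268 I-PpoI and 3217 of 5536 wild-type), less the top 4% by doublet score in each library (142 and 123 cells). Scrublet's automatic threshold marked only 30 and 5. Clusters (scanpy 1.11.5, leidenalg 0.10.2, 2000 variable genes without the members and lists, 30 components, resolution 1, mixed clusters split at 0.5) took a name from at least 3 fixed markers at 25 CPM and 4-fold over the median cluster. The naming thresholds, splits and doublet share were set after the data were seen, and the members and lists were chosen with earlier results of these data known. UMIs were summed per class and library. Levels carry exact Poisson intervals and ratios exact conditional binomial intervals (scipy 1.17.1), at 95%. Medians of log2 ratios used 0.5 added UMIs. With 1 library per group nothing was tested. All 31 members were open to naming, with values per class for those counted as higher or lower, for Mdm2, Ccng1, Bax and Phlda3, and otherwise chosen after their values were seen; up to 4 genes of each other list were named. Ratios and their intervals, but not the calls, were checked on simulated Poisson counts in the endothelial, macrophage and thick ascending limb classes. Such counts hold no variation between cells or libraries. Alternatives are listed in the closing section. Promoters came from RefSeq, GRCm38.p6.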

Additional observations from a re-analysis of the deposited data

Results flagged for a closer look

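Some members were counted as higher in the I-PpoI library in one class and lower in another. None of these differences between classes was tested, since each rests on 1 library per group. Gadd45a had a ratio of 3.80 in the thick ascending limb, 2.58 in endothelial cells and at least 2.65 in macrophages, against 0.206 in mesangial, mural and renin cells. With shared groups alone its endothelial ratio was 1.41. With cells named by the highest marker score its ratio was 1.63 in macrophages and 0.633 in mesangial, mural and renin cells. Bax had a ratio of 2.06 in the proximal tubule and 3.59 in the thick ascending limb, against 0.281 in B and plasma cells. Each of these Bax calls ended under some alternative. The ratio was 1.72 in the proximal tubule by marker score, 1.18 in the thick ascending limb with shared groups alone and 0.564 in B and plasma cells when centred. Bbc3 had a ratio of 5.90 in the thick ascending limb and 0.365 in macrophages, the latter 0.708 after thinning. Cd82 had a ratio of 5.48 in endothelial cells and 0.387 in fibroblasts.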

How the results depend on the processing

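No paired analysis was possible because each group is 1 library, and for the same reason no library could be left out. The alternatives were a 25% mitochondrial limit, at least 500 genes per cell, clustering resolutions of 0.5 and 2, no doublet removal, classes by each cell's own marker score, CPM without mitochondrial genes, centring on the median gene, thinning to 1000 UMIs, minimums of 50 and of 1 UMI, members among the clustering genes, and shared groups alone. Of 120 class medians of the members under these, 117 stayed within the rank interval of the median over the members, which is wide where few were measured. The sign changed in B and plasma cells (-1.55 at 1 UMI), the proximal tubule (-0.38 after thinning, which left out 317 I-PpoI and 473 wild-type cells) and fibroblasts (-0.23 at 1 UMI), and the medians near 0 took both signs, from -0.07 to 0.74 in dendritic and from -0.11 to 0.35 in mesangial, mural and renin cells. Centring on the median gene gave 0.22 for the members in the intercalated class, -0.0001 and 2.25 for p53 regulators and immediate early genes in the thick ascending limb, 0.14 and 0.38 for regulators and ATF4 targets in the intercalated class, and 0.16 and 1.77 for these in B and plasma cells. Without mitochondrial UMIs, regulators were at 0.14 in the thick ascending limb and ATF4 targets at 0.48 in the intercalated class. With classes set by each cell's own marker score, 3 members rather than 6 were highest in I-PpoI endothelial cells. Thinning lowered the counts of higher members and left 1 in T cells, fibroblasts, the intercalated class and the proximal tubule, 0 in dendritic cells, 5 in the thick ascending limb and 5 in macrophages. Resolution 2, and likewise no doublet removal, left 4 in the intercalated class. Shared groups alone, an alternative chosen after seeing the data, left 3 in endothelial cells and 3 in the thick ascending limb. At a minimum of 50 UMIs there were 4 in endothelial cells and 1 in T cells. At 1 UMI there were 16 in the intercalated class. The share of all genes was not computed after thinning, at resolution 2, without doublet removal or at these minimums. Over all alternatives 40 counted ratios of members passed back under the rule, 14 new ones passed it and 62 moved by over 1.5 times; the cause was not tested. Some classes fell under 20 cells: intercalated with a 25% mitochondrial limit or with members among the clustering genes, fibroblast with at least 500 genes, dendritic without doublet removal. The 2 wild-type UMIs of Ddit4 and 1 of Gdf15 in macrophages limit those ratios.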

Other observations

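Several groups of cells outside the compared classes held high levels of members. The injured tubule class, 175 cells of the I-PpoI library and none of the wild-type, had Gdf15 at 354 CPM (1480 UMIs), Btg2 at 348 CPM, Bax at 139 CPM and Mdm2 at 36.8 CPM. In the wild-type library Gdf15 was highest among named classes in distal, connecting and principal cells, at 231 CPM (245 UMIs on 57 cells), where the I-PpoI library had 1 cell. So Gdf15 was not low in every tubule cell of the wild-type library.

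Cells with UMIs from at least 2 of 6 podocyte markers had members at 2488 CPM in all in the I-PpoI library (161 cells) and 1694 CPM in the wild-type library (53 cells). Only 16 and 2 of them had at least 3 markers. Over all kept cells Nphs1 had 99 and 26 UMIs. The marker-positive cells were mostly of the endothelial and fibroblast classes, so these levels are not those of podocytes.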
